A study of Rattus norvegicus with 6 samples.

Results

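The genes described here encode the neuronal cytoskeleton, the growth cone and axonal transport, and were chosen by name from 8 functional classes. The list held 48 genes, of which 47 had a probe set naming that gene alone, among 14506 genes named in this way on the array. No probe set naming Tubb4a, a beta-tubulin, was used. Each gene was represented by its probe set of highest mean over all 6 arrays, and 46 of the 47 lay above the filter on dim probe sets and were tested, among 9652 tested genes. Nefh, the heavy neurofilament gene, lay below it.

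The cells were neurons of the cortex, taken from Sprague-Dawley rats at embryonic day 18 and kept for 3 days in the medium the labels call NB-N2. They fall into C1q-treated neurons, exposed to 10 nM C1q for 3 h (n = 3 arrays), and untreated neurons (n = 3 arrays). No vehicle or 3 h mock exposure is recorded for the untreated neurons. Handling and time therefore cannot be told apart from C1q. C1q is the recognition subunit of the classical complement pathway. The labels do not say whether the 3 arrays of a group came from separate cultures, so p-values reflect array-to-array spread that may be technical.

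A growing axon is built on microtubules, polymers of alpha- and beta-tubulin that microtubule-associated proteins stabilise and stathmins take apart. The growth cone at its tip steers by turning over actin filaments beneath a membrane rich in proteins such as GAP-43 and MARCKS. Kinesins carry cargo towards the tip along the microtubules and dynein carries it back, while neurofilaments fill the shaft and set its calibre.

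After 3 h of C1q, none of the 46 genes was called as changed by limma at an adjusted p under 0.05, beside 0% of the 17529 probe sets tested. None had an unadjusted p under 0.05 either, where 66 of the 9652 genes, or 0.684%, did. Fold changes, on the scale of log2(intensity + 16), lay between 0.943 for Tuba1a, an alpha-tubulin, and 1.06 for Map1a, a microtubule-associated protein, with standard errors between 0.038 and 0.091 log2. Taking 95% intervals, the change was bounded within 1.2-fold in either direction for 46 of 46 of these genes and for 79.6% of all tested genes. The bound was 1.1-fold for 24 of 46, or 52.2%, and for 17.3% of all tested genes. Of 12 neuronal markers, described below, 100% were bounded within 1.2-fold and 41.7% within 1.1-fold. Of 112 further cytoskeleton and transport genes, also described below, 97.3% were bounded within 1.2-fold and 36.6% within 1.1-fold. The smallest standard error was that of Actg1, the brightest of the 46, and the largest that of Tuba4a, the dimmest. These intervals bound a change of deposited intensity. Saturation of bright probe sets and the share of background are unknown, so a change of the mRNA may be larger than they show.

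**Figure D1:**
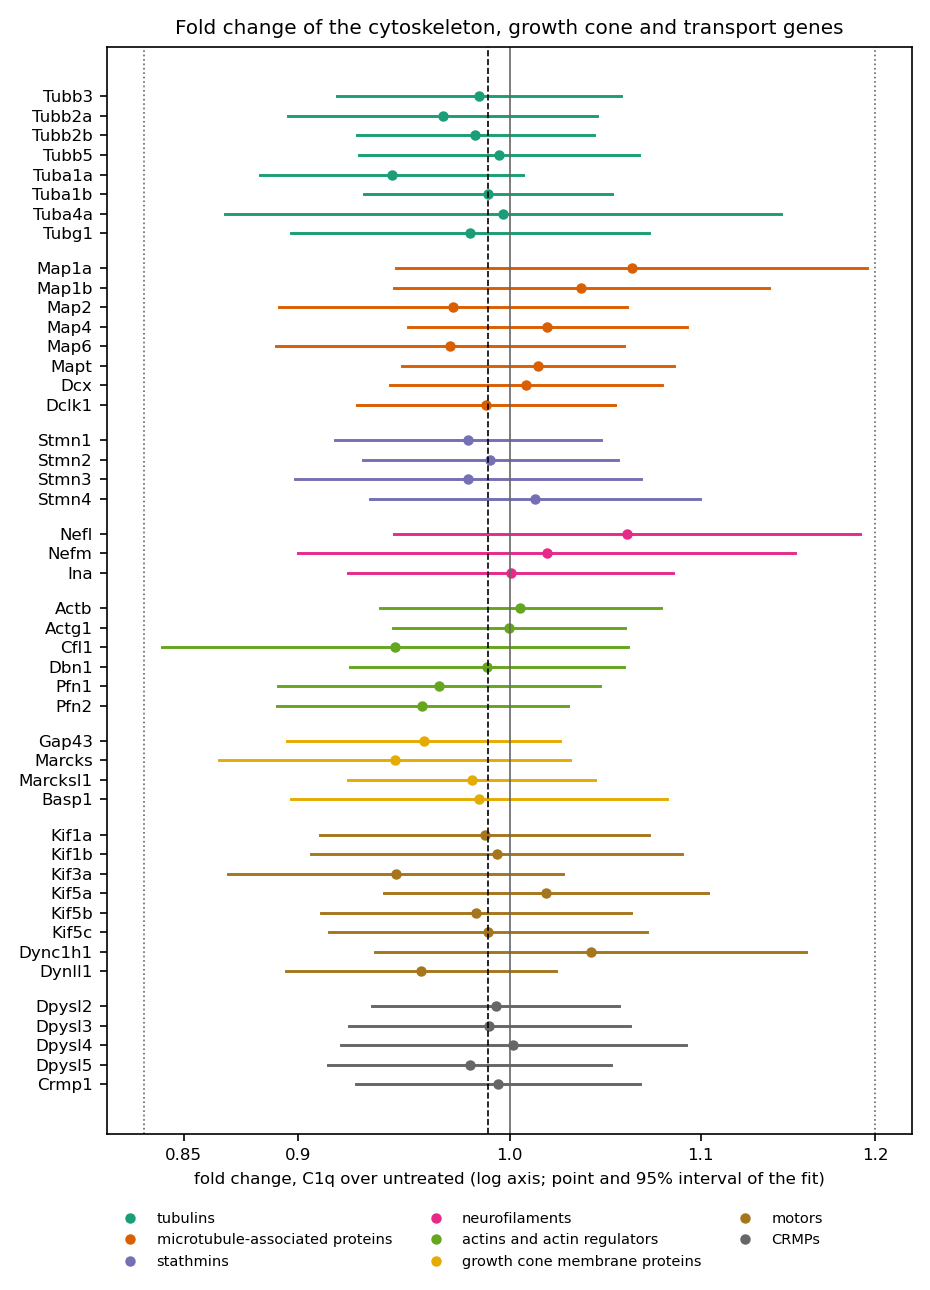
Fold change of intensity, C1q over untreated, on a log axis for the 46 tested genes by class. Points are estimates and bars are 95% intervals of the limma fit over 3 arrays per group, with a solid line at no change, a dashed line at the median of all tested genes and dotted lines at 1.2-fold in either direction. Each bar lies between the dotted lines and spans the line of no change.

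Means on the log2 scale, which all counts of means below use, were higher after C1q for 13 of the 46 genes and lower for 33. The median log2 fold change was -0.016. Over all 9652 tested genes the median was -0.016 as well, and 37.0% of means were higher, against 28.3% of the 46. The balance depended on the scaling and on single arrays. It was 24 higher to 22 lower with quantile normalization, 30 to 16 with median centring, and 32 to 14 without untreated array 1. It was 7 to 39 without untreated array 2 and also without untreated array 3, 20 to 26 without C1q array 3, and 29 to 17 with array weights. Those weights rested the untreated group mostly on untreated array 3.

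Untreated array 1 held the highest of the 6 values for 40 of the 46 genes, or 87.0%, and for 46.8% of all tested genes. The share was also high for 12 neuronal markers, at 91.7%, and for the 112 further genes described below, at 75%. In the marker lists of other cell types it lay between 0% and 66.7% of tested markers. After quantile normalization untreated array 1 held the highest for 24 of the 46. Expressed as each gene's deviation from its own mean on the log2 scale, the median over the 46 genes was 0.016, -0.0089 and -0.032 on C1q arrays 1 to 3, against 0.093, -0.038 and -0.021 on untreated arrays 1 to 3. The untreated arrays thus spanned more than the C1q arrays, and the C1q arrays lay inside their range. Over all tested genes the same deviation was -0.0085, 0.017 and -0.030 on C1q arrays 1 to 3, against 0.059, -0.036 and 0.0039 on untreated arrays 1 to 3. Counts for each class and further list below are therefore also given without untreated array 1. Each is to be read beside the shares over all tested genes given above.

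**Figure D2:**
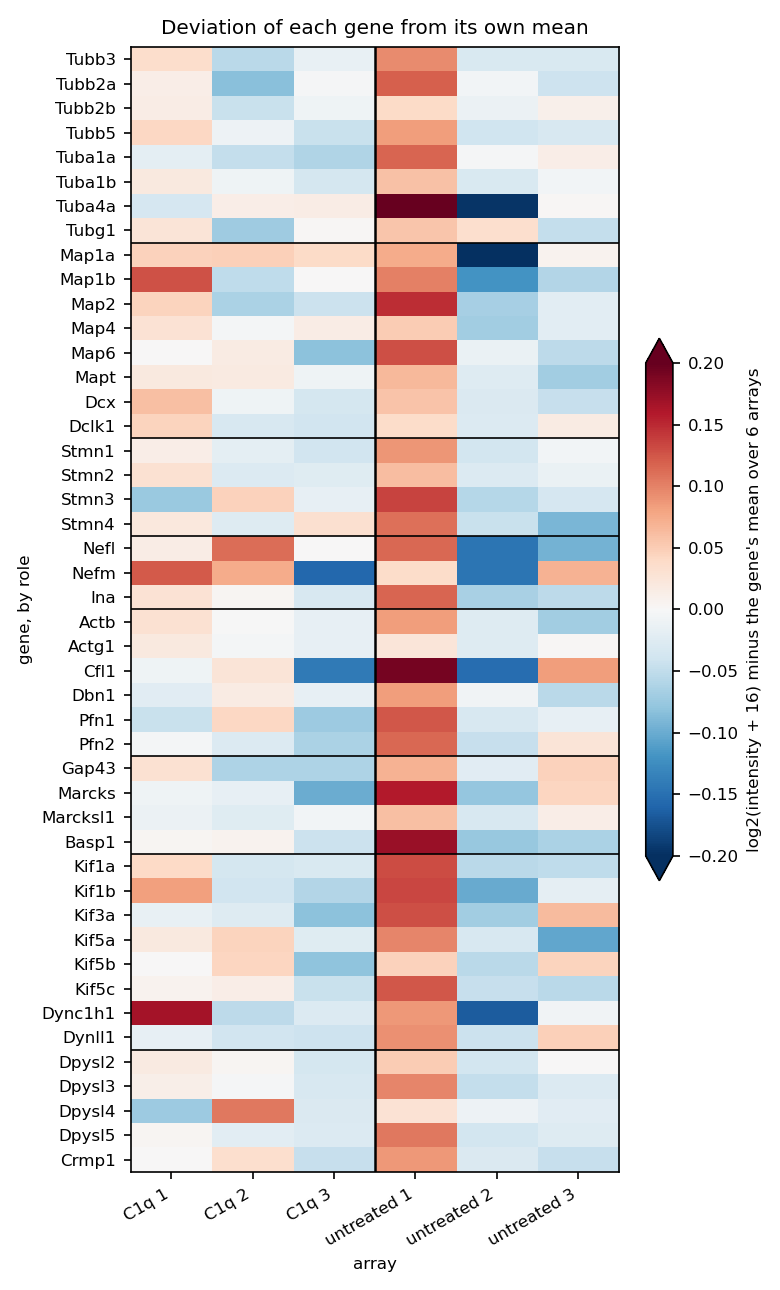
Deviation of log2(intensity + 16) from each gene's mean over 6 arrays, for the 46 tested genes (down, by class) on C1q arrays 1 to 3 and untreated arrays 1 to 3 (across). Red is above and blue below the gene's own mean, with the colour limited at 0.2 log2. The column of untreated array 1 is red for 46 of 46 genes.

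Array medians lay between 147 and 150 on C1q arrays and between 149.8 and 155 on untreated arrays, and log2 values correlated at 0.991 to 0.996 between arrays, across probe sets. All 12 neuronal markers on the array, such as Snap25, a synaptic vesicle fusion gene, lay above the filter intensity of 94.4. Their summed intensity was 28423 to 29186 on C1q arrays and 28337 to 30812.5 on untreated arrays. Below the filter lay Gfap and Gjb6 of the 9 astrocyte markers, Cspg4 and Mag of the 8 oligodendrocyte lineage markers, and Aif1, Cx3cr1, Csf1r, Itgam, Ptprc and P2ry12 of the 8 microglial markers. The astrocyte markers summed to 3406 to 3462 on C1q arrays and 3309 to 3570.2 on untreated arrays, and the microglial markers to 551 to 572 on C1q arrays and 537 to 557 on untreated arrays. Of 8 radial glia and cycling markers, all but Hes1 lay above the filter. Their sum was 5754 to 6016 on C1q arrays and 6049 to 6336 on untreated arrays, with no overlap. That sum was not taken under other scalings or with an array left out. None of the 7 tested was apart by itself. Means were higher for 1 and lower for 6, with 1 higher after quantile normalization and 3 after median centring. The brightest, Fabp7, averaged 2211 ± 136 after C1q and 2389 ± 140 untreated (SD, n = 3 each), and its groups overlapped. The oligodendrocyte lineage markers summed to 1338 to 1426 on C1q arrays and 1381 to 1516 on untreated arrays. Pecam1, Cdh5, Tek and Rgs5 of the 10 endothelial and mural markers lay below the filter, and the 10 summed to 7440.4 to 7707 on C1q arrays and 7639 to 8107 on untreated arrays. That sum is mostly Acta2, the smooth muscle actin, which averaged 6657 ± 113 after C1q and 6837 ± 153 untreated (SD, n = 3 each). Of the other mural markers, Rgs5 lay below the filter and Pdgfrb averaged 132 ± 9.70 after C1q and 139 ± 10.2 untreated (SD, n = 3 each). The source of the high Acta2 reading was not tested. The part of other cell types in the values below was not tested.

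The tubulins, subunits of the microtubule, had 8 genes tested, with 0 means higher and 8 lower after C1q. That balance changed little with quantile normalization, at 1 higher to 7 lower, where 53.1% of all tested genes were higher. It did not hold with median centring, at 5 to 3, or without untreated array 1, at 4 to 4. There 59.0% and 55.3% of all tested genes were higher. Tubb3, the beta-tubulin commonly used to mark neurons, read 8208, 7719 and 7929 on C1q arrays 1 to 3, against 8549, 7842 and 7842 on untreated arrays 1 to 3. Untreated array 1 was highest and the groups overlapped, with a fold change of 0.985 and a 95% interval of 0.918 to 1.06. Of the beta-tubulins of the developing brain, Tubb2a averaged 4061 ± 146 after C1q and 4202 ± 249 untreated, and Tubb2b averaged 11013 ± 226 after C1q and 11204 ± 197 untreated (SD, n = 3 each). Tubb5, a widely expressed beta-tubulin, had a fold change of 0.995. The fold change was 0.997 for Tuba4a, an alpha-tubulin, and 0.980 for Tubg1, the gamma-tubulin from which microtubules are nucleated.

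Tuba1a, the main alpha-tubulin of young neurons, was the 1 gene of the 46 whose groups did not overlap. It read 12062, 11827 and 11733 on C1q arrays 1 to 3, against 13253, 12206 and 12347 on untreated arrays 1 to 3. Each C1q array lay below each untreated array, at a fold change of 0.943 (95% interval, 0.883 to 1.01). Its unadjusted p from limma was 0.0739, and it did not pass (adjusted p = 0.9999). Among all tested genes 3.73% were apart in this direction and 1.23% in the other, beside 1 and 0 of the 46. Its log2 fold change was -0.08, and -0.05 without untreated array 1, -0.05 with quantile normalization and -0.06 with median centring.

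Tuba1b, which encodes a near-identical alpha-tubulin and lies next to Tuba1a on chromosome 7 in the RefSeq annotation, had 2 probe sets that differed. The one representing the gene read 13753, 13475 and 13240.3 on C1q arrays 1 to 3, against 14126, 13282 and 13513 on untreated arrays 1 to 3, and its groups overlapped at a fold change of 0.989. The other read 3502, 3437 and 3425 on C1q arrays 1 to 3, against 3721, 3652 and 3732 on untreated arrays 1 to 3. There the groups were apart, at a fold change of 0.934 (95% interval, 0.879 to 0.991). The unadjusted p from limma was 0.0275, and this probe set did not pass either (adjusted p = 0.9999). Averaged over both probe sets, the log2 fold change of Tuba1b was -0.06. Tuba1c, a further alpha-tubulin gene outside the list, had a fold change of 0.990, with a mean of 3353 ± 112 after C1q and 3390.3 ± 191 untreated (SD, n = 3 each). Alpha-tubulin transcripts share most of their coding sequence, so RNA of one gene can bind probes of another and the values of single genes are uncertain. The same holds for Tubb2a and Tubb2b, and for Actb and Actg1.

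Proteins that bind and stabilise microtubules had 8 genes tested, with 5 means higher and 3 lower after C1q, or 5 and 3 with quantile normalization, 6 and 2 with median centring, and 7 and 1 without untreated array 1. Map2, a protein of dendrites and cell bodies, read 5352, 4965 and 5032 on C1q arrays 1 to 3, against 5749, 4954 and 5109.9 on untreated arrays 1 to 3. Its groups overlapped, with the C1q values inside the untreated range, and the 95% interval of the fold change was 0.892 to 1.06. Mapt, which encodes the axonal protein tau, read 4832, 4828 and 4739.6 on C1q arrays 1 to 3, against 4986, 4680.1 and 4540.3 on untreated arrays 1 to 3. The C1q values again lay inside the untreated range, at a fold change of 1.01.

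Map1a, a light-chain-bearing protein of mature neurons, read 473, 474 and 471 on C1q arrays 1 to 3, against 483, 393 and 460.1 on untreated arrays 1 to 3. The 3 C1q values were nearly equal and the untreated range enclosed them, with untreated array 2 low, so the fold change of 1.06 had a 95% interval from 0.945 to 1.195. Map1b, its counterpart in growing axons, averaged 7663 ± 489.9 after C1q and 7399 ± 591 untreated (SD, n = 3 each). Dcx, the doublecortin of migrating and immature neurons, read 9005, 8582 and 8428 on C1q arrays 1 to 3, against 8985, 8458 and 8361 on untreated arrays 1 to 3. These values were near the same on both sides, with a fold change of 1.01 and a 95% interval of 0.942 to 1.08. Fold changes were 0.988 for the doublecortin-like kinase Dclk1, 1.02 for the widely expressed Map4, and 0.971 for Map6, a protein that protects microtubules from the cold.

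The stathmins bind free tubulin and promote the loss of microtubules. All 4 were tested, and 1 mean was higher and 3 were lower, or 2 and 2 with either rescaling and 4 and 0 without untreated array 1. Stmn2, a stathmin of growth cones, read 7285, 6994 and 7013 on C1q arrays 1 to 3, against 7443, 6993 and 7066 on untreated arrays 1 to 3. The first array of each group was high and the groups overlapped, with a 95% interval of the fold change from 0.929 to 1.06. Stmn1 read 10425, 10191 and 10067 on C1q arrays 1 to 3, against 10984, 10074 and 10290.0 on untreated arrays 1 to 3, and its lowest untreated value lay among the C1q values, at a fold change of 0.979. The fold change was 0.979 for Stmn3 and 1.01 for Stmn4, both membrane-bound stathmins of neurons.

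**Figure D3:**
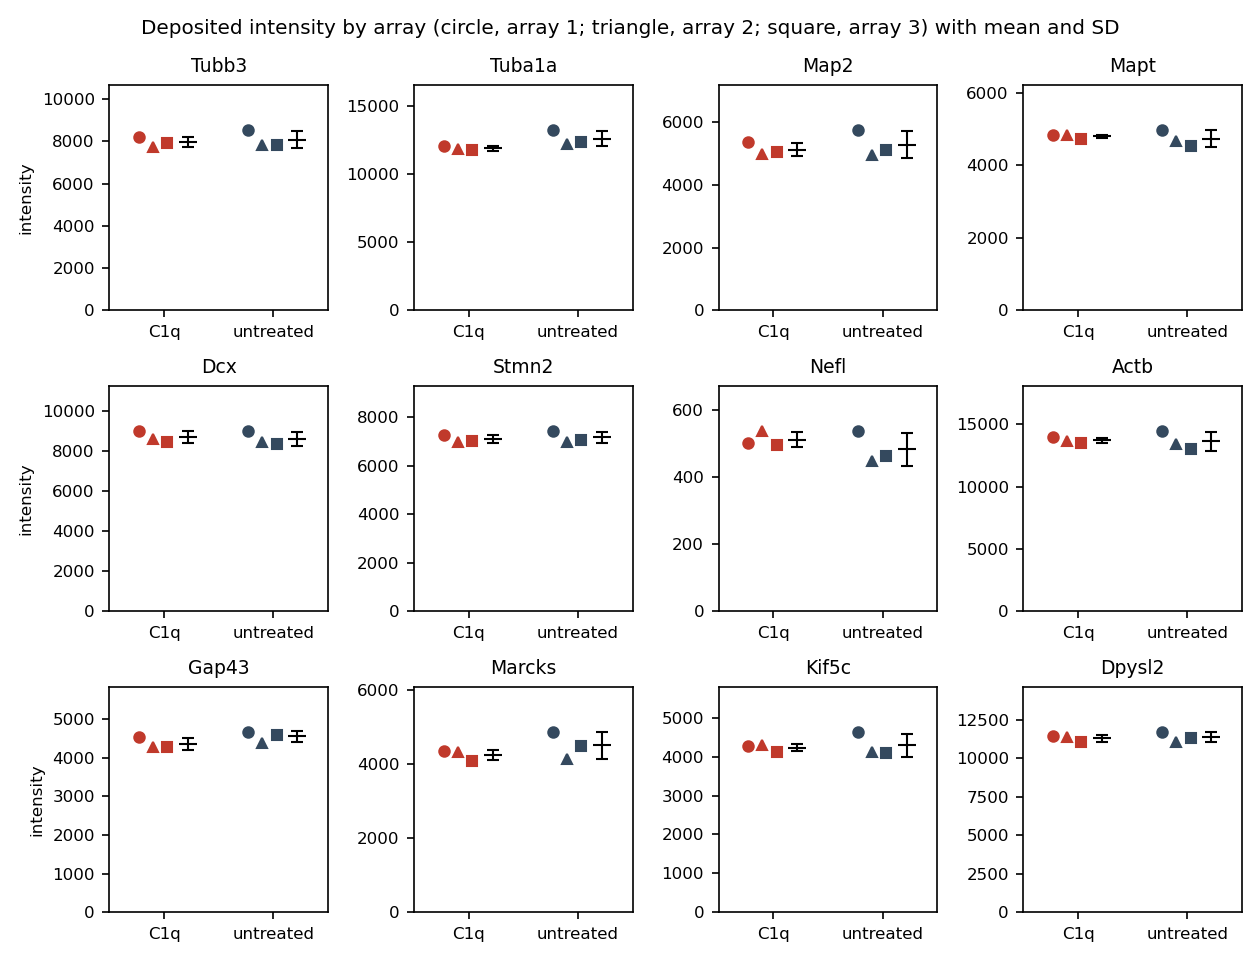
Deposited intensity of 12 of the genes, each on its own axis from 0, for C1q arrays (red, left) and untreated arrays (grey, right). Circles, triangles and squares are arrays 1, 2 and 3, and the bar beside them is the mean with its SD (n = 3). The groups overlap except for Tuba1a, whose 3 C1q values lie below its 3 untreated values.

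Neurofilament genes had 3 means higher and 0 lower of 3 tested, and this balance was the same with quantile normalization, with median centring and without untreated array 1. It did not hold under every alternative, since the log2 fold change of Nefm was -0.04 without untreated array 2. Nefl, the light chain on which the filament assembles, read 502, 538 and 497 on C1q arrays 1 to 3, against 539, 447 and 465 on untreated arrays 1 to 3. Untreated array 1 lay beside C1q array 2 and the other untreated arrays were low, so the groups overlapped. The fold change was 1.06 (95% interval, 0.944 to 1.19), and the log2 fold change was 0.16 without untreated array 1. Nefm, the medium chain, averaged 747 ± 76.8 after C1q and 732 ± 58.7 untreated (SD, n = 3 each). Ina, which encodes alpha-internexin, an early neuronal filament, averaged 2779 ± 59.9 after C1q and 2782 ± 200.1 untreated (SD, n = 3 each). As deposited, Ina counted as higher on the log2 scale alone, by 0.00064, while its mean intensity was lower. Nefh, a late neurofilament of mature axons, read 68.8, 67.5 and 79.5 on C1q arrays 1 to 3, against 62.3, 94.5 and 61.3 on untreated arrays 1 to 3, below the filter and within an unknown background. In the RefSeq annotation Nefl and Nefm are neighbours on chromosome 15.

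Of 6 actin genes and regulators tested, 1 mean was higher and 5 were lower after C1q, or 3 and 3 with either rescaling and without untreated array 1. Actb, the cytoplasmic beta-actin, read 13951, 13646 and 13501 on C1q arrays 1 to 3, against 14476, 13423 and 13014 on untreated arrays 1 to 3. The untreated values enclosed those with C1q, and the 95% interval of the fold change was 0.938 to 1.08. Gamma-actin, Actg1, had 6 probe sets, with log2 fold changes between -0.017 and -0.00039, so that no probe set stood apart from the others. Pfn2, the neuronal profilin that supplies actin monomers, read 4103, 4036 and 3936 on C1q arrays 1 to 3, against 4454, 3984 and 4186 on untreated arrays 1 to 3. Its fold change was 0.957 (95% interval, 0.890 to 1.03), and the lowest untreated value lay among the C1q values. Cfl1, the filament-severing cofilin, averaged 5793 ± 349.9 after C1q and 6156 ± 735 untreated (SD, n = 3 each), and its 95% interval of 0.841 to 1.06 reached the lowest bound among the 46 genes. The fold change was 0.966 for the profilin Pfn1 and 0.989 for Dbn1, the actin-binding drebrin of spines and growth cones.

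Growth cone membrane proteins had 0 means higher and 4 lower of 4, or 1 and 3 with either rescaling and without untreated array 1. The gene on the higher side was Marcksl1 with quantile normalization and Basp1 with median centring. Gap43, the growth-associated protein of axon tips, read 4549, 4269 and 4270.5 on C1q arrays 1 to 3, against 4675, 4387 and 4602 on untreated arrays 1 to 3. C1q array 1 lay between the untreated values, and the fold change was 0.958 (95% interval, 0.895 to 1.03). Marcks, which binds the membrane and actin under the control of protein kinase C, read 4343, 4316 and 4078 on C1q arrays 1 to 3, against 4876, 4141 and 4499 on untreated arrays 1 to 3. The lowest untreated value again lay among the C1q values, at a fold change of 0.944 (95% interval, 0.865 to 1.03). Fold changes were 0.981 for Marcksl1, a MARCKS relative, and 0.985 for Basp1, a membrane protein of the same kind.

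Motor genes had 2 means higher and 6 lower of 8 tested, a balance of 4 to 4 with quantile normalization, 6 to 2 with median centring, and 5 to 3 without untreated array 1. Kif5c, a neuronal heavy chain of conventional kinesin, read 4273, 4296 and 4126 on C1q arrays 1 to 3, against 4638, 4119 and 4096 on untreated arrays 1 to 3. Untreated array 1 was high and the untreated range enclosed the C1q values, and the 95% interval of the fold change was 0.914 to 1.07. Fold changes of the other conventional kinesin heavy chains were 1.02 for Kif5a and 0.983 for Kif5b. Kif3a, a subunit of the heterotrimeric kinesin, read 1868, 1853 and 1782 on C1q arrays 1 to 3, against 2065, 1798 and 1972 on untreated arrays 1 to 3. The lowest untreated value lay among the C1q values, and the fold change was 0.945 (95% interval, 0.869 to 1.03). Kif1a and Kif1b, which carry synaptic vesicle precursors and mitochondria, had fold changes of 0.988 and 0.994. Dync1h1, the dynein heavy chain that drives retrograde transport, averaged 3612 ± 307 after C1q and 3470.0 ± 306 untreated (SD, n = 3 each). The dynein light chain Dynll1 averaged 5478 ± 53.3 after C1q and 5731 ± 271 untreated (SD, n = 3 each).

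Collapsin response mediator proteins bind tubulin and pass semaphorin signals to the growth cone. Of 5 tested, 1 mean was higher and 4 were lower, or 5 and 0 with quantile normalization, 4 and 1 with median centring, and 5 and 0 without untreated array 1. Dpysl2, also known as Crmp2, read 11456, 11345 and 11043 on C1q arrays 1 to 3, against 11719, 11037 and 11327 on untreated arrays 1 to 3. Its untreated range enclosed the C1q values, and the 95% interval of the fold change was 0.934 to 1.06. Dpysl5 read 5675, 5577 and 5554 on C1q arrays 1 to 3, against 6090.1, 5516 and 5557 on untreated arrays 1 to 3. Untreated array 1 was high and the other untreated values lay beside those with C1q, at a fold change of 0.980. Dpysl3, Dpysl4 and Crmp1 had fold changes of 0.990, 1.00 and 0.994, none of which passed, and each of the 5 intervals lay within 1.1-fold.

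**Figure D4:**
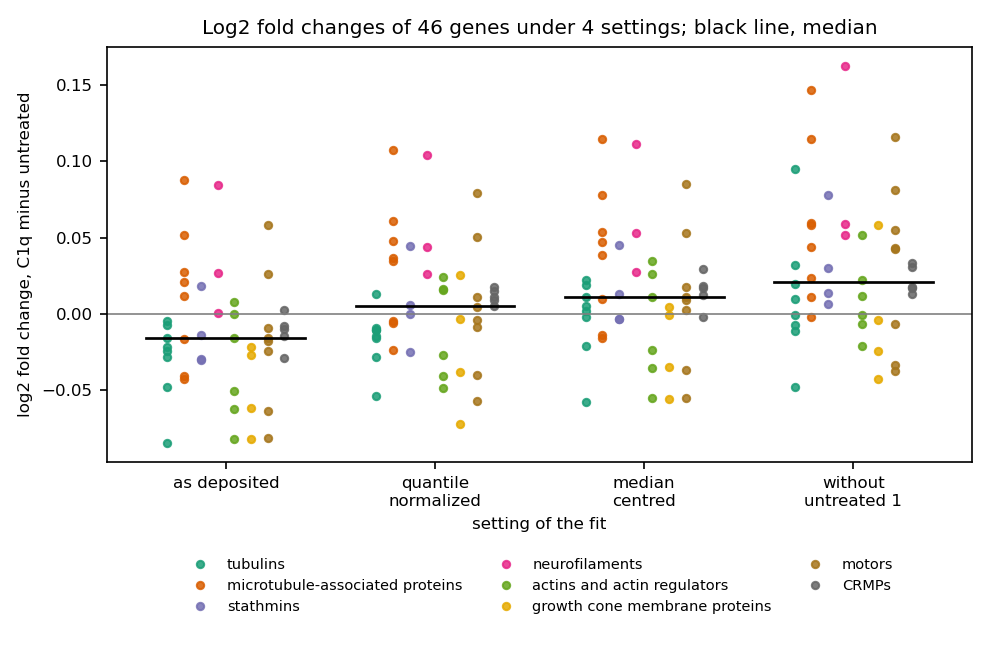
Log2 fold change, C1q minus untreated, of the 46 tested genes by class (colour) under 4 settings, with the median as a black line. The median was -0.016 as deposited, 0.0048 with quantile normalization, 0.011 with median centring and 0.021 without untreated array 1. Over all tested genes, not drawn, it was -0.016, 0.0038, 0.011 and 0.0074 in the same order.

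The within-group spread on the log2 scale was larger among untreated than among C1q arrays for 40 of the 46 genes, or 87.0%, and for 71.0% of all tested genes. The median SD of the 46 genes was 0.036 among C1q arrays and 0.079 among untreated arrays, and over all tested genes it was 0.056 among C1q arrays and 0.081 among untreated arrays. Map1a had the smallest spread among C1q arrays, with an SD of 0.0052, and Nefm the largest, with 0.150. The widest spread among untreated arrays was that of Tuba4a, with an SD of 0.199, from 351 on untreated array 2 to 467 on untreated array 1. This difference in spread was not tested.

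Further cytoskeleton and transport genes, taken from 5 further lists, gave 112 tested genes outside the 46. Intermediate filaments of other cell types, with nuclear lamins, were among them. None passed, and none had an unadjusted p under 0.05 with limma. Means were higher for 30 and lower for 82, at a median log2 fold change of -0.020, or 61 and 51 with quantile normalization, 66 and 46 with median centring, and 69 and 43 without untreated array 1. Of 30 tubulin, plus-end and severing genes 8 means were higher and 22 lower, or 19 higher with either rescaling and 21 without untreated array 1, and the smallest p was that of Tuba8, an alpha-tubulin, at 218 ± 9.70 after C1q and 239 ± 7.92 untreated (SD, n = 3 each). Among 37 further actin genes the balance was 11 to 26, with 19 higher after quantile normalization, 18 after median centring and 21 without untreated array 1. Cfl2, a second cofilin, averaged 3667 ± 171 after C1q and 3930.1 ± 222 untreated (SD, n = 3 each), a fold change of 0.934 (95% interval, 0.862 to 1.01). Transport adaptors and further motors, 29 genes, had 6 means higher and 23 lower, or 15 higher with quantile normalization, 18 with median centring and 16 without untreated array 1. Kifap3, the adaptor that joins Kif3a to its cargo, averaged 3308 ± 133 after C1q and 3483 ± 116 untreated (SD, n = 3 each).

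Spectrin and ankyrin genes, which line the axonal membrane, had 4 means higher and 7 lower of 11, a balance that turned to 6 higher with quantile normalization, 9 with median centring and 10 without untreated array 1. There was a fold change of 0.940 for Add3, an adducin that caps actin. Intermediate filament genes of other cell types had 1 higher and 4 lower of 5 tested, or 2 higher with either rescaling and 1 without untreated array 1, with a fold change of 0.922 for the nuclear lamin Lmna. The groups did not overlap for 6 of these 112 genes, each lower after C1q. They were Tuba8, Add3 and Lmna and, named after their values were seen, the dynein light chains Dynll2 and Dynlt1 and the kinesin Kif3b, with fold changes of 0.970, 0.981 and 0.957. Among all tested genes 3.73% were apart in that direction.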

How the data were processed

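Per the labels' protocols, RNA was isolated on QIAGEN columns and biotinylated cRNA was made as Affymetrix prescribes. The authors' deposited table gives 1 linear intensity per probe set and array. How it was summarised and normalized is not given in the sources used here. No detection calls were used.

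Genes were named where the platform annotation gave exactly 1 symbol, for 15310 of 29215 probe sets, of which 15279 matched a RefSeq table of assembly GRCr8. Values were analysed as log2(intensity + 16), which understates changes of dim genes. Probe sets in the top 60% by mean, above an intensity of 94.4, were fitted by limma 3.58.1 under R 4.3.3 (lmFit, then eBayes with trend), with Benjamini-Hochberg adjustment over 17529 probe sets. The procedure was tested on simulated data with independent noise on each gene and array. That simulation held no shift of a whole array such as that of untreated array 1, so it does not bear on that shift. Precision is limited by the number of arrays.

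The genes and lists were chosen with earlier results of these data known. Values on every array are given for 11 genes chosen by role, the gene of smallest p in each class, genes whose groups did not overlap, and Nefh and Tuba1b, added after their values were seen. Of each further list the gene of smallest p is named.

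The alternatives were other scalings, filters, pseudocounts, variance models, array weights, a replicate block, leaving out each array, and averaging a gene's probe sets.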

Additional observations from a re-analysis of the deposited data

How the results depend on the processing

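No gene of the cytoskeleton list passed under any of 17 alternatives, and the smallest adjusted p of any of them was 0.135, for Kif5a with array weights. Over all probe sets, array weights called 130 higher and 317 lower, an absent filter called 0 higher and 1 lower, and the replicate block called 9 higher and 0 lower. Leaving out each array in turn called 0 to 28 higher and 0 to 10 lower, with every such call made without untreated array 2. The replicate numbers were not treated as pairing the arrays, and whether they do is unknown. Deviations of same-numbered arrays correlated at 0.0141, -0.453 and -0.134 for numbers 1, 2 and 3. The replicate block called no gene of the list. The number of genes with a higher mean, 13 of 46, was 24 with quantile normalization, 30 with median centring and 29 with array weights. It ran from 7, without untreated array 2 or 3, to 32, without untreated array 1, and was 20 without C1q array 3. Over all tested genes the share of higher means, 37.0%, was 53.1% with quantile normalization, 59.0% with median centring and 42.6% with array weights. It was 27.9% without untreated array 2 and 55.3% without untreated array 1. With an array left out, the median log2 fold change of the 46 genes ran from -0.041 to 0.021. That over all tested genes ran from -0.036 to 0.0074. The sign was the same under 15 settings for 11 of the 46 genes, 3 higher and 8 lower, or 23.9%, against 37.5% of all tested genes. Other filters, variance models and the replicate block do not alter a fold change, so any of these among the 15 cannot turn a sign. Signal over background is unknown and limits what can be said of dim genes such as Nefh.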
